A study of Mus musculus with 6 samples.

Results

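Il15, Il2rb, Eomes, Ptprc and Cd3g link a cytokine that keeps natural killer (NK) cells alive to one chain of its receptor, to an NK cell transcription factor, and to surface markers of leukocytes and T cells. They were measured in uterine RNA from female mice at 3.5 days post coitum. All probe sets annotated to these 5 genes were taken, 6 of the 1382 probe sets in the table, and all 6 read higher in Stat3 d/d uteri, as did 67.4% of the table. The Stat3 d/d group (3 arrays) came from mice carrying the deleted Stat3 alleles, and the Stat3 f/f group (3 arrays) from mice with floxed, undeleted alleles at the same day. The age and strain of the mice, the driver of the deletion, the cells in which it acts and any pooling of animals are not stated in the labels. Each value is an Affymetrix probe set intensity on a linear scale, after robust multi-array average (RMA) processing by the authors. A change is the Stat3 d/d mean less the Stat3 f/f mean of log2(intensity + 1), a scale that understates the change of dim probe sets, and a gene with several probe sets is represented by the brightest.

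Interleukin-15, the product of Il15, is a cytokine that is held on the surface of the producing cell by its alpha receptor and presented to a neighbouring lymphocyte. That lymphocyte reads it through a beta chain, encoded by Il2rb and shared with the interleukin-2 receptor, and the common gamma chain, which signal through JAK kinases and STAT5. NK cells depend on it for survival, and the uterus holds a resident NK cell population that expands after implantation. Eomes is a T-box transcription factor of NK cell maturation and of trophoblast stem cells, Ptprc encodes the phosphatase CD45 carried by nearly all leukocytes, and Cd3g encodes a chain of the CD3 complex that signals for the T cell receptor.

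The table was selected on the comparison described here. No probe set in it has overlapping groups or group means less than 1.5-fold apart, and all 1382, or 100%, passed limma's moderated test at an adjusted p of 0.05. Of all probe sets, 67.4% passed as higher in Stat3 d/d. The passes of the 6 member probe sets are therefore a description, and so is the lack of overlap between their groups. Intensities in the table run between 2.47 and 4352. Stat3 read 121, 101.4 and 130.7 on the Stat3 d/d arrays, against 261.9, 356 and 243 on the Stat3 f/f arrays, by its brighter probe set. Its place relative to the deleted exons is unknown here. Pgr, the progesterone receptor of uterine tissue, averaged 694 ± 43.9 in Stat3 d/d and 1261 ± 305 in Stat3 f/f (SD, n = 3 arrays each), and was chosen after its values were seen. Nothing in the labels ties the arrays to separate animals, so errors and p-values cover only array-to-array spread in these samples, and that spread may be technical.

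Sequence before the start site was available in RefSeq's promoter table (build GRCm38.p6) for 3 of the 5 genes, and is shown as description only. Each run holds the 250 bases before an annotated start, on the gene's own strand. Capitals mark the only match to the 3 motifs searched, an interferon-response type motif whose first base lies 154 bases before the Eomes start.
Eomes (chr9:118477939-118478188, plus strand): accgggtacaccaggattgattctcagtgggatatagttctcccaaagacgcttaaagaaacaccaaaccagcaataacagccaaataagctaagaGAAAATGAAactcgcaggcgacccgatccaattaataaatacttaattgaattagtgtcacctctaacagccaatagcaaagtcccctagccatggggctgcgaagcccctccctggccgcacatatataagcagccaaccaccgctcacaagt
Ptprc (chr1:138175306-138175555, minus strand, the more upstream of its annotated starts): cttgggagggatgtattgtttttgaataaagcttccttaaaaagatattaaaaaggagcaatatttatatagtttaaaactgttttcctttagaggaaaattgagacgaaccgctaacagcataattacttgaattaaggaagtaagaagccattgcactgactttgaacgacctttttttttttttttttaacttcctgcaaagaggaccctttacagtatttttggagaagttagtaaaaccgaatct
Cd3g (chr9:44980432-44980681, minus strand): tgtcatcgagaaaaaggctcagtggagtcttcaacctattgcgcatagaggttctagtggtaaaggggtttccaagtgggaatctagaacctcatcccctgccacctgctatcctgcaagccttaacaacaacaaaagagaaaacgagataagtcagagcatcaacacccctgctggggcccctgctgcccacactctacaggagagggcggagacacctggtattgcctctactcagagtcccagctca

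The motifs were TTCNNNGAA, the palindrome that STAT factors bind, GAAANNGAA, of the kind bound by interferon regulatory factors, and AGGTGTGA, bound by T-box factors such as Eomes. Both strands were searched, and the first motif may overlap the second by shared GAA letters. Of the 32851 promoters in the table, 7.02% hold the first motif in the same 250 bases, 7.13% the second and 1.12% the third. The match at Eomes reads GAAAATGAA. Neither Ptprc nor Cd3g held any of these letters in its window, including the other annotated start of Ptprc. A match is a run of letters and not a bound site.

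Il15, the ligand, was higher on every Stat3 d/d array. Its probe set, 1418219_at, read 52.0, 43.4 and 43.5 in Stat3 d/d replicates 1, 2 and 3, against 20.7, 21.5 and 19.9 in Stat3 f/f replicates 1, 2 and 4. The lowest Stat3 d/d array stood 2.02-fold above the highest Stat3 f/f array. The Stat3 d/d mean was 46.3 ± 4.92 and the Stat3 f/f mean 20.7 ± 0.80 (SD, n = 3 arrays each), a log2 change of 1.12 (SE 0.16, limma's adjusted p = 0.000227). Il15 was also the steadiest member within groups, with a coefficient of variation of 10.6% in Stat3 d/d and 3.84% in Stat3 f/f.

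Il2rb, the beta chain that receives interleukin-15, was likewise higher on every Stat3 d/d array. The probe set 1448759_at read 34.6, 24.7 and 22.5 in Stat3 d/d, against 11.01, 10.4 and 8.19 in Stat3 f/f, in the same order of replicates. Replicate 1 was the highest Stat3 d/d array and replicate 4 the lowest Stat3 f/f array, and the groups lay 2.04-fold apart at their nearest values. Means were 27.3 ± 6.44 in Stat3 d/d and 9.88 ± 1.49 in Stat3 f/f (SD, n = 3 arrays each), for a log2 change of 1.36 (SE 0.20, limma's adjusted p = 0.000272).

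Eomes, the transcription factor, was read by 2 probe sets that were both higher in Stat3 d/d by unequal amounts. The brighter, 1435172_at, read 17.7, 25.4 and 16.3 in Stat3 d/d, against 6.94, 7.22 and 6.07 in Stat3 f/f. Its log2 change was 1.40 (SE 0.20, limma's adjusted p = 0.000185). The other, 1426001_at, read 12.3, 18.7 and 13.8 in Stat3 d/d, against 7.62, 7.92 and 6.72 in Stat3 f/f, and changed by 0.90 (SE 0.19). Both probe sets placed replicate 2 highest among the Stat3 d/d arrays, and both put the Stat3 f/f arrays in the order replicate 2, 1 and 4 from high to low. Averaged over the 2 probe sets the change was 1.15. The dimmer one lost its call after median centring (0.43, limma's adjusted p = 0.0767) and after quantile normalization (0.43, limma's adjusted p = 0.0757).

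Ptprc, the marker of leukocytes in general, had the highest change of the 5 genes over all 6 arrays. Without Stat3 d/d replicate 1 its change of 1.44 was below that of Eomes, 1.47. It read 419.9, 321 and 270.0 in Stat3 d/d, against 145, 107 and 81.6 in Stat3 f/f, by the probe set 1422124_a_at. The 3 Stat3 f/f arrays differed by up to 1.78-fold and the 3 Stat3 d/d arrays by up to 1.56-fold, so the groups stood apart by little more (1.86-fold at their nearest values) than the spread within them. The log2 change was 1.61 (SE 0.24, limma's adjusted p = 0.000282). In bulk RNA a higher level can come from more cells of a type or from more RNA per cell, and these cannot be told apart.

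Cd3g, the T cell receptor complex chain, was the dimmest member and, within Stat3 d/d, the most variable, with a coefficient of variation of 50.6% there and 14.0% in Stat3 f/f. The probe set 1419178_at read 17.9, 10.6 and 6.31 in Stat3 d/d, against 4.20, 4.66 and 3.51 in Stat3 f/f, where the lowest intensity of the whole table is 2.47. Stat3 d/d replicate 3 was only 1.35-fold above the highest Stat3 f/f array, and the Stat3 d/d arrays spanned 2.84-fold. Its log2 change of 1.20 (SE 0.29, limma's adjusted p = 0.00358) was 0.85 without Stat3 d/d replicate 1 and 1.54 without Stat3 d/d replicate 3. Without the added 1 it was 1.38. No detection calls came with the values, so whether Cd3g was above background in Stat3 f/f is unknown.

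**Figure D1:**
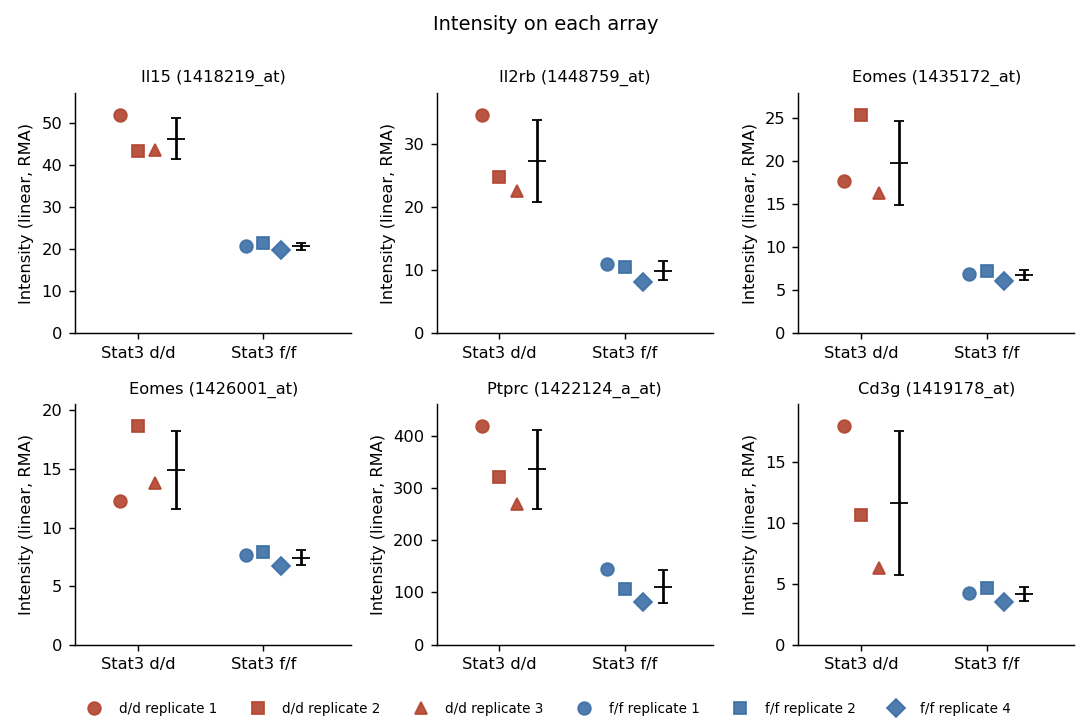
Intensity (linear, RMA) of each member probe set on every array, Stat3 d/d in red and Stat3 f/f in blue, with bars for the mean ± SD of 3 arrays. No panel has overlapping groups, Il15 is tight in both groups, Eomes is highest in Stat3 d/d replicate 2, and Cd3g spans 6.31 to 17.9 in Stat3 d/d.

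Set among the 660 genes that were higher in Stat3 d/d, the members, each by its brightest probe set, lay in the upper part of the range without leading it. Ptprc had 100 genes above it (15.2%), Eomes 133 (20.2%) and Il2rb 143 (21.7%). The dimmer Eomes probe set, with a change of 0.90, had 344 above it (52.1%). Cd3g had 186 above it (28.2%) and Il15 210 (31.8%). The median change was 0.92 over these 660 genes and 0.70 over all 987 genes. With p-values adjusted as if 45000 probe sets had been tested, roughly a whole array, 4 of the 6 member probe sets passed. They were those of Il15, Il2rb and Ptprc and the brighter one of Eomes, with limma's adjusted p between 0.00601 and 0.00917. Under that assumption 28.0% of the table passed as higher. Cd3g (limma's adjusted p = 0.117) and the dimmer Eomes probe set (0.0568) did not pass.

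The scaling between arrays moved the size of every change. The median change of all probe sets was 0.70 as deposited, 0.24 after each array was centred on its median and 0.25 after quantile normalization, and the table, being selected, cannot show which is right. After median centring Il15 stood at 0.65, Il2rb at 0.90, Eomes at 0.94, Ptprc at 1.14 and Cd3g at 0.73, and each of these kept a limma adjusted p under 0.05, with Cd3g nearest to it at 0.0466. Relative to the median of all probe sets, as deposited or centred, Ptprc was higher by 0.90, Eomes by 0.70, Il2rb by 0.66, Cd3g by 0.50 and Il15 by 0.42.

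**Figure D2:**
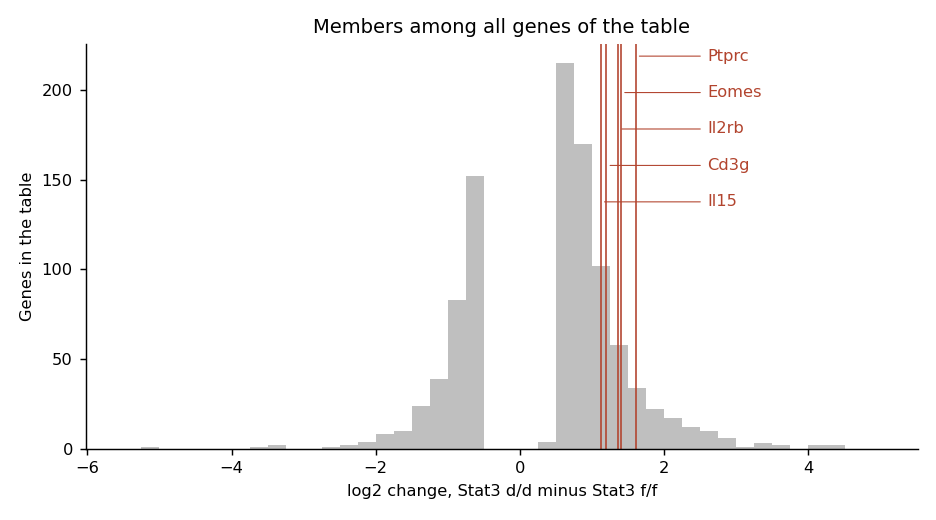
Number of genes in the table by log2 change (Stat3 d/d minus Stat3 f/f, bins of 0.25), with red lines at the 5 members. The empty stretch around 0 is the selection of the table, and the members, each by its brightest probe set, lie between 1.12 and 1.61.

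The members were then set against each other, which asks whether the cytokine, its receptor chain and the leukocyte markers changed by unequal amounts. For each of the 10 pairs of genes the difference of log2 values was taken within every array. Because of the added 1, this measure still depends on scaling by a constant factor, most for dim genes. Without the added 1, the changes of Cd3g and Ptprc differed by -0.24 rather than -0.41. Groups overlapped in all 10 pairs. Over all 6 arrays the widest gap was between Ptprc and Il15, while without Stat3 d/d replicate 1 it was that of Cd3g minus Eomes (-0.61, against 0.40 for Ptprc minus Il15). Ptprc exceeded Il15 by 2.82 ± 0.20 in Stat3 d/d and by 2.33 ± 0.39 in Stat3 f/f (log2, SD, n = 3 arrays each). The changes thus differed by 0.48, with an exact two-sided permutation p of 0.20 and an adjusted p of 0.60 over the 10 pairs. Il2rb minus Il15 was -0.76 ± 0.18 in Stat3 d/d and -1.004 ± 0.17 in Stat3 f/f, a difference of 0.24 (exact permutation p = 0.20, adjusted p = 0.60). With 3 arrays against 3 the smallest p this test can give is 0.10, so no pair could have passed.

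Il2rb and Ptprc ran most closely in parallel within Stat3 d/d. Their difference there was 3.58 ± 0.06, against 3.34 ± 0.24 in Stat3 f/f, and the changes differed by 0.24 (exact permutation p = 0.30, adjusted p = 0.60, n = 3 arrays each). The pair of Eomes and Il2rb behaved otherwise: their changes were 0.04 apart on average (exact permutation p = 0.90, adjusted p = 0.90), while the per-array difference varied with an SD of 0.48 in Stat3 d/d, where Eomes was relatively high on replicate 2 and relatively low on replicate 1. Cd3g fell short of Ptprc by 0.41 in its change (exact permutation p = 0.30, adjusted p = 0.60). These p-values do not show that any pair changed alike.

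Within groups the arrays kept a partly shared order. Stat3 f/f replicate 4 was the lowest of its group for all 6 member probe sets, where 41.1% of the 931 probe sets higher in Stat3 d/d have it lowest. Stat3 d/d replicate 1 was the highest of its group for Il15, Il2rb, Ptprc and Cd3g (40.5% of the 931), and replicate 2 for both Eomes probe sets (31.7%). Stat3 d/d replicate 3 was the highest for none (27.8% of the 931), and the lowest for 4 of the 6 (38.9%). The 2 groups of 3 arrays form separate clusters for every member, so a correlation of Il15 with the other members over the 6 arrays would repeat the group difference, and none was computed.

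**Figure D3:**
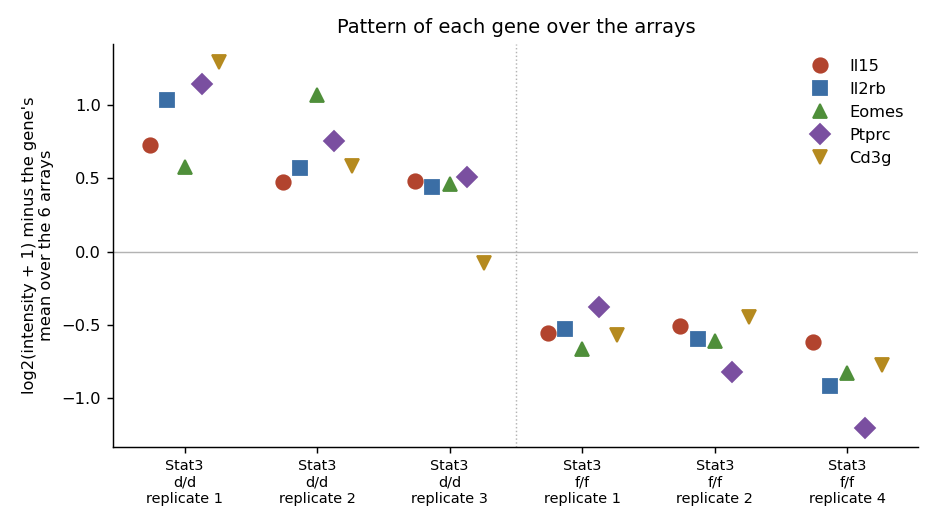
Values of log2(intensity + 1) for each gene after its mean over the 6 arrays was subtracted, with Stat3 d/d arrays on the left and Stat3 f/f arrays on the right. Il15, Il2rb, Ptprc and Cd3g are highest on Stat3 d/d replicate 1 and Eomes on replicate 2, and all 5 genes are lowest on Stat3 f/f replicate 4.

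General leukocyte genes in the table were higher, as the members were. Of 24 genes expressed across leukocytes, 18 were in the table and all 18, Ptprc among them, passed as higher, with a median log2 change of 1.22, where 67.4% of all probe sets passed as higher. After either scaling 12 of the 18 passed, and 7 with 45000 tests assumed. Of all 1382 probe sets, 438 passed as higher after quantile normalization, 422 after median centring and 387 (28.0%) with 45000 tests assumed. Their summed level was between 1407 and 2415 on the Stat3 d/d arrays and between 601 and 899.5 on the Stat3 f/f arrays. Besides Ptprc, Cd52, a small glycoprotein of lymphocytes, averaged 416 ± 146 in Stat3 d/d and 132 ± 43.1 in Stat3 f/f (SD, n = 3 arrays each), a change of 1.64, and the tetraspanin Cd53 changed by 1.29. Lcp1 (plastin of leukocytes), Coro1a (an actin regulator) and Laptm5 (a lysosomal membrane protein) changed by 1.04, 0.95 and 0.87. The 17 of these genes other than Ptprc were all highest on Stat3 d/d replicate 1 among the Stat3 d/d arrays, as Ptprc was.

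NK cell genes had 19 of 50 in the table, all higher (67.4% of all probe sets were), with a median of 1.21. Of the 19, 15 passed after quantile normalization, 12 after median centring and 12 with 45000 tests assumed. In the same order, 438, 422 and 387 of all 1382 probe sets passed as higher. Il2rb and Eomes, both among the 19, are members. Summed over the 19, the level was between 534 and 846 in Stat3 d/d and between 162 and 229 in Stat3 f/f. Granzyme B, Gzmb, a protease of killer granules, changed by 2.44, the inhibitory and activating receptor chain Klrd1 by 2.20, the granule protein Nkg7 by 1.85, the chemokine Ccl5 by 1.85, granzyme A by 1.25 and the protease Ctsw by 1.08. Without Il2rb and Eomes, 11 of the 17 others were highest on Stat3 d/d replicate 1 and 6 on replicate 2. The replicate 2 group held 5 of the 7 killer cell lectin-like receptor genes, where 31.7% of the 931 probe sets higher in Stat3 d/d are highest on replicate 2. Among them were Klra8, at 94.0 there against 46.6 and 48.3 on replicates 1 and 3, and Klre1, at 21.2 there against 16.5 and 16.3. The others, Klrc1 (10.93, 4.55 and 6.31 on replicates 1, 2 and 3) and Klrk1 (12.45, 10.06 and 10.71), were highest on replicate 1. These receptor genes were chosen after their values were seen. Eomes was highest on replicate 2.

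Of 28 listed T cell genes, 2 were in the table, which holds only probe sets that differ between the groups. Cd3g was higher, and Thy1, a surface glycoprotein of T cells that stromal cells also carry, was lower, at 269 ± 33.0 in Stat3 d/d and 461 ± 102 in Stat3 f/f (SD, n = 3 arrays each), a log2 change of -0.76 (SE 0.20). The other CD3 chains and the T cell receptor constant genes on the list were not analysed here. Trbv1, a T cell receptor variable gene outside the list, changed by 0.90 and was chosen after its values were seen. Of 15 B and plasma cell genes only Ighm, the mu heavy chain, was in the table, with a change of 0.89 that lost its call under both scalings. No neutrophil or mast cell gene of 15 was in the table.

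Macrophage and dendritic cell genes had 11 of 29 in the table, all higher (67.4% of all probe sets were), with a median of 1.25. Of the 11, 8 passed after quantile normalization, 9 after median centring and 6 with 45000 tests assumed. In the same order, 438, 422 and 387 of all 1382 probe sets passed as higher. The summed level of the 11 was between 1046 and 2131 in Stat3 d/d and between 405 and 631 in Stat3 f/f. The cathepsin Ctss changed by 1.79, Ms4a7 by 1.57, the pore-forming Mpeg1 by 1.35, the chemokine receptor Ccr2 by 1.25, the activation marker Cd83 by 1.09 and the macrophage receptor Adgre1 by 1.08. These cells can produce interleukin-15 and carry Ptprc. In the embryo and trophoblast list Eomes was the only one of 15 genes in the table. The lists' part in the changes of Il15, Il2rb, Eomes, Ptprc and Cd3g was not tested.

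The table holds only probe sets that differ between the groups, and little of the rest of the interleukin-15 pathway was in it. Of 24 genes of interleukin-15 and common gamma chain signalling, only Il15 and Il2rb were in the table, so the alpha receptor, the gamma chain, Jak1, Jak3 and the STAT5 genes were not analysed here. Of 20 genes listed as possible inducers of Il15, 7 were in the table. Of the 7, 6 were higher and 1 lower, where 67.4% of all probe sets were higher. Their median was 0.78, beside 0.70 for all genes. Nlrc5, which switches on MHC class I genes, averaged 87.4 ± 5.15 in Stat3 d/d and 10.3 ± 0.61 in Stat3 f/f (SD, n = 3 arrays each), a change of 2.97. Whether Nlrc5 induces Il15 was not tested. The interferon regulatory factor Irf7 changed by 1.60. Irf8 changed by 0.87, Irf9 by 0.60 and the pattern receptors Tlr4 and Tlr3 by 0.78 and 0.76. Irf3, the listed gene that was lower, changed by -0.64 and was named because it is the exception. After either scaling 2 of the 6 rises, those of Nlrc5 and Irf7, kept their calls. Of all 1382 probe sets, 438 passed as higher after quantile normalization and 422 after median centring.

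Of 24 transcription factors of NK cells and other lymphocytes, 6 were in the table and all were higher (67.4% of all probe sets were). Their median was 0.79, beside 0.70 for all genes and 0.92 for the 660 higher genes. Eomes had the highest change of the 6 by its brighter probe set, while its dimmer one (0.90) was below Ikzf1. Ikzf1 and Ikzf2, zinc finger factors of lymphocytes, changed by 0.95 and 0.79, Id2, an inhibitor of E proteins needed by NK cells, by 0.78, Rora by 0.63 and Runx3 by 0.50. After either scaling only 1 of the 6, Eomes by its brighter probe set, kept its call, and its dimmer probe set lost it. Of all 1382 probe sets, 438 passed as higher after quantile normalization and 422 after median centring.

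**Figure D4:**
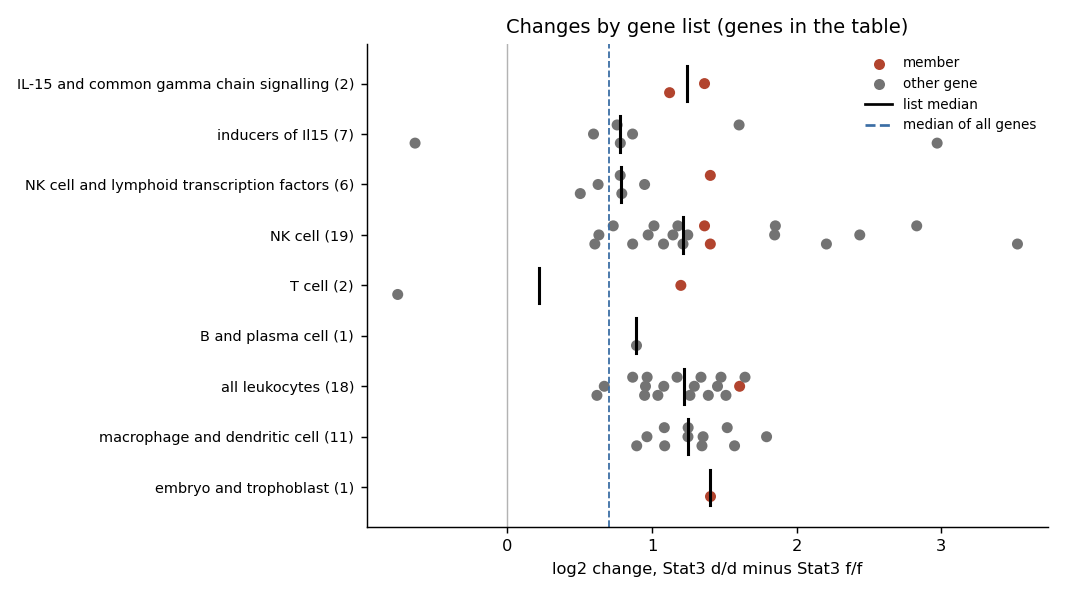
Log2 change (Stat3 d/d minus Stat3 f/f) of each gene in the table by list, with the number of genes in brackets, members in red, list medians as black bars and the median of all genes (0.70) dashed. The leukocyte, NK cell and macrophage lists have medians between 1.21 and 1.25, and Irf3 and Thy1 are the genes below 0.

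The genes with the pattern most like each member were found by the root mean square (RMS) difference over the 6 arrays, after each gene was centred on its own mean. Il15 was closest to Sec23b, a coat protein of transport vesicles, at an RMS difference of 0.04 log2 units, and then to Ivd, a mitochondrial dehydrogenase of leucine breakdown (0.08), and Pex19, a peroxisome import factor (0.11). Over the genes higher in Stat3 d/d the median distance to Il15 was 0.29. Il2rb was closest to Wdfy4, a protein of antigen cross-presentation by dendritic cells (0.05), then to the immunoproteasome subunit Psmb8 (0.13) and the selectin ligand Selplg (0.14). Eomes had no such close neighbour. Its nearest were the carboxylesterase gene Ces1e (0.14), the keratin gene Krt12 (0.15) and the prostaglandin E2 receptor Ptger2 (0.16).

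Ptprc was closest to the Fc receptor Fcgr2b (0.10), the adaptor Sla (0.13) and the platelet and leukocyte protein Plek (0.16). Cd3g was closest to the lysozyme gene Lyz1 (0.11), the NK cell receptor Ncr1 (0.14) and the granzyme gene Gzmc (0.14). Among members, Il15 and Il2rb were 0.18 apart, and Il2rb and Ptprc 0.19 apart. Of the 986 genes ordered by distance from Il2rb, Il15 was at rank 15 and Ptprc at rank 16. Il2rb itself was at rank 55 from Il15 and at rank 7 from Ptprc. Eomes and Cd3g were the farthest pair at 0.42. The distance includes the size of the change, so genes that changed by similar amounts come out as near.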

How the data were processed

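Uterine RNA of 6 samples, 3 Stat3 d/d and 3 Stat3 f/f, was biotin-labelled for Affymetrix arrays, per the labels' protocols. Groups were taken from the source names and replicate numbers from the titles. RMA is named in the submitters' processing notes, without a version. The deposited values are intensities on a linear scale, so RMA's log2 output must have been converted back, which no label mentions. The genome build is not given in the sources used here. Of its 1382 probe sets, 1191 had 1 gene symbol in the annotation of the array platform, covering 987 genes.

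Values were taken as log2(intensity + 1) and fitted over the whole table by lmFit and eBayes of limma 3.58.1 (R 4.3.3), with group as the only term, adjusting p-values over all probe sets by Benjamini-Hochberg at a threshold of 0.05. Pairs of members were compared by exact permutation tests in scipy 1.17.1, and figures drawn with matplotlib 3.10.9. The fit was tested on simulated data. Members, gene lists and tests were chosen with earlier results of these data known. Named genes were the members, up to 6 of each list with the highest mean intensity, and the 3 genes most like each member. Alternatives were quantile normalization, median centring, no pseudocount, an intensity trend, no variance moderation, array weights, 45000 assumed tests, an adjusted p of 0.01, removal of the dimmest 25% of probe sets, averaging probe sets within a gene, leaving out each array, and the replicate number as a block.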

Additional observations from a re-analysis of the deposited data

How the results depend on the processing

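By brightest probe set, the changes of Il15, Il2rb, Eomes, Ptprc and Cd3g stayed positive in every alternative fit that held them. They passed the threshold there except for Cd3g with 45000 tests assumed (1.20, limma's adjusted p = 0.117). After quantile normalization, after median centring and with 45000 tests assumed, the dimmer Eomes probe set lost its call. Its adjusted p from limma was 0.0757, 0.0767 and 0.0568 in that order. Removing the dimmest 25% of probe sets took out Cd3g and both Eomes probe sets, so they were not tested there. Leaving out each array gave 1.04 to 1.16 for Il15, 1.18 to 1.48 for Il2rb, 1.22 to 1.52 for Eomes, 1.40 to 1.82 for Ptprc and 0.85 to 1.54 for Cd3g. Eomes averaged over its probe sets was 1.15, a value with no test. Over the table, 889 probe sets passed after quantile normalization (49.3% of them higher), 873 after median centring (48.3% higher) and 518 with 45000 tests, against 1382 (67.4% higher). Without the dimmest 25%, the 3 remaining member probe sets passed. With the replicate number as a block, 1284 probe sets and 6 member probe sets passed, and Cd3g was 1.45. Deviations of same-numbered arrays correlated at 0.09 and 0.03 over probe sets, and only 2 numbers are shared, so the arrays were not treated as paired. After quantile normalization and after median centring the rises with a call were 2 for listed possible inducers of Il15, 1 for transcription factors and 0 for B and plasma cells. For NK cells they were 12 after median centring. Differences between members' changes turned sign with single arrays left out, ranging from -0.18 to 0.38 for Cd3g minus Il15, -0.20 to 0.28 for Eomes minus Il2rb (-0.0045 after quantile normalization), -0.33 to 0.055 for Cd3g minus Il2rb, -0.031 to 0.41 for Ptprc minus Eomes and -0.61 to 0.016 for Cd3g minus Eomes. The table gives no measure of signal over background, which limits Cd3g and Eomes most.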
